A study of Homo sapiens with 8 samples.

Results

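The genes described here are 10 genes listed as feedback inhibitors of the ERK pathway, of the 60230 genes in the count table. DUSP1, DUSP4, DUSP5, DUSP6 and DUSP10 encode dual-specificity phosphatases, and SPRY1, SPRY2, SPRY4, SPRED1 and SPRED2 encode Sprouty and SPRED proteins. They were selected by gene symbol, and all 10 were among the 13400 genes with enough reads to be tested. The list was drawn up with values of these data known, and DUSP5 was chosen on its increase over DMSO, which was among the largest. Differences of these 10 genes from DMSO are therefore given as a description without p-values. Whether the fit over all genes called them is given with that description, and nothing is read from it.

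The study asked whether plastic-related compounds affect liver cells that overexpress CYP2C19, a cytochrome P450 of drug metabolism. RNA was sequenced from HepG2, a human liver tumour cell line, and every group carried a transfected CYP2C19 kept under blasticidin. Cells received 0.2% DMSO (n = 2) or compound 4, compound 5 or compound 6 (n = 2 each) for 24 h. Each compound was given at its own IC50, and the study describes the 3 values as rather comparable. Time was thus matched between compounds, while concentrations were close but not set equal. The IC50 came from an assay with a longer exposure than the 24 h used here. The 3 compounds are bisphenols. Compound 4 (metylcresol in the labels) has a methylene bridge, with a tert-butyl group next to each hydroxyl group and a methyl group opposite it. Compound 6 (cyclohexil) carries cyclohexyl in place of tert-butyl, and compound 5 (tetrabut) has an ethylidene bridge and tert-butyl at both ring positions. Replicates 1 and 2 are the libraries labelled day 1 and day 2. The labels do not say that they came from separate cultures, and p-values measure only the spread between these libraries. The labels mark replicate 1 of DMSO and replicate 1 of compound 4 as merged, and no other library. What was merged is not explained there, and its part in the values below was not tested. Whether the transfected line was a single clone is not given in the sources used here.

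Growth factor receptors activate RAS, which passes the signal through RAF and MEK kinases to ERK. Active ERK switches on genes whose products turn the pathway down again, and the list described here was drawn up around that feedback loop. Dual-specificity phosphatases remove phosphate from the threonine and tyrosine of the activation loop of MAP kinases: DUSP5 acts on ERK in the nucleus, DUSP6 on ERK in the cytoplasm, DUSP1 and DUSP4 on ERK, JNK and p38 in the nucleus, and DUSP10 mainly on JNK and p38. Sprouty proteins interrupt the signal between receptor and RAF, and SPRED proteins bring the RAS inhibitor neurofibromin to the membrane. In liver cells the pathway responds to EGF, HGF and FGF family ligands.

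The 8 libraries held between 9791659 and 17814595 counts. Levels are given as CPM, the usual scaling of counts to library size, with library sizes corrected by TMM. The summed level of 8 hepatocyte and HepG2 markers was 47386 to 51098 CPM under DMSO and 33497 to 42490 CPM under the compounds. By group means, ALB, AFP, APOB, TF and SERPINA1 were lower than DMSO under each compound. HNF4A had 306 CPM under DMSO and 325, 274 and 322 under compounds 4, 5 and 6. FGB had 186 CPM under DMSO and 144, 269 and 135 in that order. TTR had 80.4 CPM under DMSO and 95.7, 69.5 and 76.3. The 5 fibroblast markers summed to at most 0.102 CPM and the 4 endothelial markers to at most 2.08 CPM. The 5 leukocyte markers summed to 1857 to 2189 CPM under DMSO and 1420 to 1895 CPM under the compounds, while the defining markers PTPRC and CD3E were at 0 in every library. LYZ made up nearly all of that sum, at 2164 and 1836 CPM under DMSO and 1380 to 1863 CPM under the compounds. The macrophage marker CD68 stood at 24.7 and 20.1 CPM under DMSO, 39.3 and 38.6 with compound 4, 25.9 and 20.03 with compound 5 and 30.7 and 29.4 with compound 6. CD14 was at 0.717 and 0.419 CPM under DMSO, 1.41 and 1.597 with compound 4, 0.823 and 0.683 with compound 5 and 1.37 and 1.14 with compound 6. CYP2C19 itself stood at 27.7 and 16.4 CPM in the DMSO libraries, 31.4 and 44.3 with compound 4, 52.8 and 37.96 with compound 5 and 23.9 and 21.2 with compound 6. The part of these shifts in the values below was not tested. A lower level of a gene can come from fewer cells that express it or from less RNA per cell, and bulk libraries cannot tell these apart.

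The phosphatases DUSP4, DUSP5 and DUSP6 and the Sprouty genes SPRY2 and SPRY4 were higher than DMSO in both libraries of each compound. SPRY2 stayed within a log2 difference of 0.51, as did DUSP10, SPRY1, SPRED1 and SPRED2. A gene is called here when edgeR's quasi-likelihood test gave a Benjamini-Hochberg adjusted p under 0.05 over all 13400 genes. Under compound 4, 4 of the 10 genes were called higher (DUSP4, DUSP5, DUSP6, SPRY4), where 5.6% of all tested genes were called higher and 3.91% lower. Under compound 5, 5 were called higher (the same 4 and DUSP1), where the shares of all tested genes were 5.35% and 2.95%. Under compound 6, 2 were called higher (DUSP6 and SPRY4), where the shares were 0.493% and 0.0821%. The choice of genes used these differences, so the counts test nothing about the list. The counts under compounds 4 and 5 include DUSP5, which was chosen on its increase and passed the filter on low counts through the treated libraries alone. None of the 10 genes was called lower in any of these comparisons, and all 10 fitted differences were above 0, although those of SPRY1 and SPRED1 under compound 6 fell just below 0 when only the 4 libraries compared were fitted.

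Without replicate 2 of DMSO, the number called fell to 0 of 4 for compound 4, 1 of 5 for compound 5 and 0 of 2 for compound 6. Without replicate 1 of DMSO it was 3, 1 and 0. Leaving out replicate 2 of compound 4 gave 2 under that compound, leaving out replicate 1 of compound 5 gave 1, and leaving out replicate 2 of compound 6 gave 0. The counts over all tested genes moved with the same libraries, from 1275, 1112 and 77 under compounds 4, 5 and 6 to 43, 46 and 2 without replicate 2 of DMSO and to 390, 77 and 5 without its replicate 1. They were 152 under compound 4 without its replicate 2, 118 under compound 5 without its replicate 1 and 4 under compound 6 without its replicate 2. The count under compound 6 also moved with libraries that the comparison does not hold, to 4 without replicate 1 of compound 5 and to 1 without replicate 1 of compound 4. It was 4 with DESeq2 and 1 with edgeR on DESeq2 size factors.

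Both libraries of compound 4 lay above both DMSO libraries for 8 of the 10 genes, against 30.4% of all tested genes. The same held for 9 genes under compound 5, against 31%, and for 6 under compound 6, against 29.3%. The median log2 difference of the 10 genes was 0.52, 0.61 and 0.26 under compounds 4, 5 and 6, and that of all tested genes was 0.013, 0.0037 and 0.020. The choice of genes used these differences, so these counts and medians are a description too. The comparisons with DMSO share the same 2 control libraries.

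**Figure D1:**
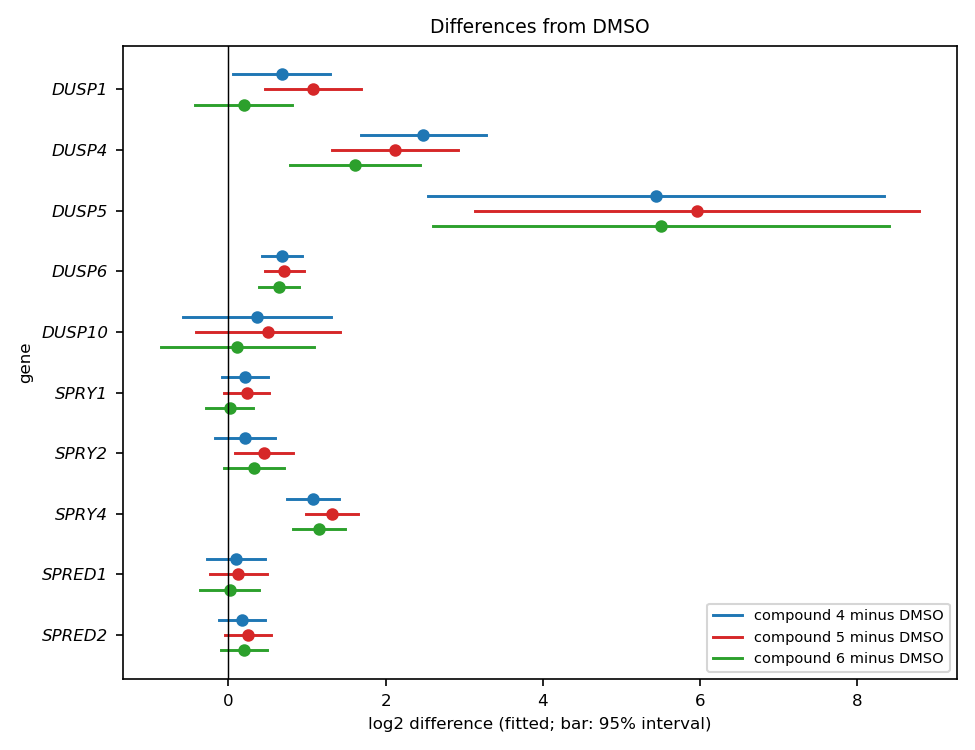
Fitted log2 difference from DMSO of each gene (x axis) with its 95% interval as a bar, for compound 4 (blue), compound 5 (red) and compound 6 (green), 2 libraries a group. DUSP5 lies farthest to the right with the widest bars, and SPRY4 lies above 1 log2 unit for all 3 compounds.

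DUSP5, the nuclear phosphatase specific for ERK, was low under DMSO and had the largest differences of the list. Its level was 0.512 and 0.419 CPM in the DMSO libraries, 8.35 and 32.2 with compound 4, 44.8 and 14.8 with compound 5 and 6.48 and 36.2 with compound 6. The DMSO libraries held 5 counts each, and the 95% Poisson intervals, which cover counting error only, were 0.166 to 1.196 and 0.136 to 0.977 CPM. The lowest treated library, replicate 1 of compound 6 with 66 counts, had an interval of 5.01 to 8.24 CPM. DUSP5 passed the filter on low counts through the treated libraries alone, so its calls are not read. The fitted log2 difference, given with its standard error here and below, was 5.44 ± 1.30 (compound 4), 5.96 ± 1.26 (compound 5) and 5.50 ± 1.30 (compound 6). The 2 libraries of each compound lay far apart, and the libraries of the 3 compounds overlapped. When 1 library, or the same replicate of every group, was left out, the log2 difference ranged from 3.99 to 6.22 under compound 4. The ranges were 4.96 to 6.57 under compound 5 and 3.62 to 6.39 under compound 6. Whether DUSP5 was called under compound 6 differed between the fits, and nothing is read from that either.

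DUSP4, which acts on ERK, JNK and p38 in the nucleus, showed the second largest differences. The level was 3.07 and 2.09 CPM in the DMSO libraries, 10.8 and 17.6 with compound 4, 13.7 and 8.71 with compound 5 and 6.57 and 9.10 with compound 6. Every treated library was higher than both DMSO libraries, and the highest was replicate 2 of compound 4. The log2 difference was 2.48 ± 0.35 (compound 4), 2.12 ± 0.36 (compound 5) and 1.61 ± 0.37 (compound 6). It was called under compounds 4 and 5. Under compound 6 it was called by DESeq2, in the fit of the 4 libraries alone and without either library of compound 5. The call under compound 4 was lost without replicate 2 of DMSO, and that under compound 5 without either DMSO library or without replicate 1 of compound 5.

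DUSP1, an immediate early gene whose product acts on ERK, JNK and p38, was highest under compound 5. Its libraries stood at 51.7 and 37.6 CPM in the DMSO libraries, 60.9 and 81.1 with compound 4, 121 and 67.4 with compound 5 and 44.6 and 57.1 with compound 6. The libraries of compound 6 overlapped those of DMSO, and those of compounds 4 and 5 did not. The log2 difference was 0.68 ± 0.27 (compound 4), 1.08 ± 0.27 (compound 5) and 0.19 ± 0.28 (compound 6), and only that under compound 5 was called. That call was lost without either DMSO library, without replicate 1 of compound 5, without either library of compound 6 and in the fit of the 4 libraries alone, where the difference under compound 4 was called.

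The upstream window of DUSP1 is shown because it held the most matches among these genes, a choice made after the search. RefSeq promoter windows were found for 8 of the 10 genes, and the 250 bases before each start were searched on both strands. The motifs were the ETS site ACCGGAAG, the CRE TGACGTCA, its short form TGACG, the AP-1 site TGANTCA, the NRF2 element TGACNNNGC, the E-box CACGTG and the serum response CArG box. Of all 35116 windows of this length, 1.78% held the ETS site, 1.646% the CRE, 21.22% the short form, 6.573% the AP-1 site, 10.91% the NRF2 element, 6.345% the E-box and 1.159% the CArG box. The DUSP1 window (GRCh38.p14, chr5:172771196-172771445, minus strand, read 5′ to 3′ toward the start) lies outside the annotated exons of the gene. It held a CRE at 125 to 118 bases before the start, an E-box at 108 to 103, and NRF2 element letters on the opposite strand at 115 to 107 that overlap the E-box. The short form lay at 172 to 168 and 111 to 107 as well as on both strands of the CRE. Capitals mark the CRE and the joined NRF2 element and E-box.
DUSP1 upstream: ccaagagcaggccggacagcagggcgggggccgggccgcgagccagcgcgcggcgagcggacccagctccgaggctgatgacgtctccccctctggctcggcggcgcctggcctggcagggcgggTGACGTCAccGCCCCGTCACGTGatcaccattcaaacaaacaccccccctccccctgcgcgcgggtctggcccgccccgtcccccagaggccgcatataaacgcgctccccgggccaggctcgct

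DUSP6, the cytoplasmic ERK phosphatase that is often read as a gauge of ERK output, was called under all 3 compounds with differences of similar size. Its level was 183 and 162 CPM in the DMSO libraries, 276 and 277 with compound 4, 306 and 259 with compound 5 and 265 and 272 with compound 6. All 6 treated libraries lay above both DMSO libraries. The log2 difference was 0.68 ± 0.11 (compound 4), 0.71 ± 0.11 (compound 5) and 0.64 ± 0.11 (compound 6). The call was lost without replicate 2 of DMSO under each compound, without replicate 1 of DMSO under compounds 5 and 6, without replicate 2 of compound 4 or replicate 1 of compound 5 under those compounds, and without either library of compound 6 or replicate 1 of compound 4 under compound 6. Under compound 6 it was also lost with DESeq2 size factors. The RefSeq window of DUSP6 held none of the motifs and lies wholly inside the first exon of the gene in GENCODE 29.

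DUSP10, which acts mainly on JNK and p38, was low in every library, between 1.33 and 2.80 CPM, and the libraries of compound 6 overlapped those of DMSO while replicate 2 of compound 5 was barely above them. Its log2 difference was 0.37 ± 0.42 (compound 4), 0.51 ± 0.41 (compound 5) and 0.11 ± 0.44 (compound 6), none of which was called.

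SPRY4, a Sprouty protein that blocks activation of RAS by receptor tyrosine kinases, was higher by more than 1 log2 unit under each compound. It stood at 97.5 and 90.5 CPM in the DMSO libraries, 179 and 218 with compound 4, 257 and 211 with compound 5 and 189 and 228 with compound 6. All treated libraries lay above both DMSO libraries, and the highest was replicate 1 of compound 5. The log2 difference was 1.08 ± 0.15 (compound 4), 1.31 ± 0.15 (compound 5) and 1.15 ± 0.15 (compound 6), with the smallest errors relative to size in the list. The call under compound 5 was not lost in any of the 14 alternatives with a test. Like the other calls of the listed genes, that is a description and nothing is read from it. The call under compound 4 was lost without replicate 2 of DMSO, and that under compound 6 without either DMSO library or without replicate 2 of compound 6.

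The far part of the SPRY4 window is shown because SPRY4 was called under all 3 compounds. The window precedes the start of a RefSeq transcript that lies inside the gene as GENCODE 29 annotates it, downstream of the annotated start of the gene. Only the first 80 of the 250 bases (GRCh38.p14, chr5:142324418-142324497, minus strand) lie outside the annotated exons of SPRY4. They held NRF2 element letters on the opposite strand at 228 to 220 bases before the start, in capitals, and the short form TGACG lay nearer to the start at 68 to 64.
SPRY4 window: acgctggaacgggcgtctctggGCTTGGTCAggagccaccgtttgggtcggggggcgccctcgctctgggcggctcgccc

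One window of SPRY2 held TGACG at 190 to 186 bases before the start, and no match was found in the windows of DUSP10, SPRY1, SPRED1 and SPRED2. A match describes letters only.

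SPRY2, the Sprouty protein most studied as a brake on FGF and EGF receptor signals, differed less. Its level was 7.69 and 8.37 CPM in the DMSO libraries, 9.01 and 9.58 with compound 4, 10.8 and 11.2 with compound 5 and 10.7 and 9.47 with compound 6. All treated libraries were above both DMSO libraries, by a log2 difference of 0.21 ± 0.17 (compound 4), 0.45 ± 0.17 (compound 5) and 0.33 ± 0.17 (compound 6), and none was called. SPRY1 had values of 19.1 and 22.6 CPM in the DMSO libraries, 23.8 and 24.4 with compound 4, 24.5 and 24.5 with compound 5 and 20.5 and 21.7 with compound 6. The libraries of compounds 4 and 5 lay above those of DMSO and those of compound 6 lay between them, with log2 differences of 0.21 ± 0.13 (compound 4), 0.23 ± 0.13 (compound 5) and 0.015 ± 0.13 (compound 6).

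SPRED1 and SPRED2 dampen RAS through neurofibromin. SPRED1 lay between 21.2 and 28.0 CPM in all libraries and its treated libraries overlapped those of DMSO under each compound, with log2 differences of 0.093 ± 0.16 (compound 4), 0.13 ± 0.16 (compound 5) and 0.015 ± 0.17 (compound 6). SPRED2 lay between 72.8 and 95.8 CPM, with log2 differences of 0.18 ± 0.13 (compound 4), 0.25 ± 0.13 (compound 5) and 0.20 ± 0.13 (compound 6). Both libraries of compounds 5 and 6 were above those of DMSO for SPRED2, and replicate 1 of compound 4 was not.

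Levels of different genes were set side by side per kb of the longest coding transcript in GENCODE 29, an older release than the one the reads were assigned to. Under DMSO, DUSP6 was highest at 39.1 CPM per kb, followed by DUSP1 at 22.1, SPRY4 at 19.0 and SPRED2 at 18.7. The libraries of these last 3 genes overlapped on this scale. SPRY1 stood at 7.99 CPM per kb, and SPRED1 and SPRY2, which overlapped, at 2.97 each. DUSP10 at 0.565 and DUSP4 at 0.467 CPM per kb also overlapped, and DUSP5 was lowest at 0.182. Under compounds 4, 5 and 6 DUSP5 stood at 7.92, 11.7 and 8.34 CPM per kb, above SPRED1, SPRY2, DUSP10 and DUSP4 in group means. DUSP6 remained the highest per kb under each compound, at 62.9, 64.2 and 61.1 CPM per kb.

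By position in GRCh38 (GENCODE 29), DUSP5 lies at chr10:110497838-110511544 on the plus strand, DUSP6 at chr12:89347232-89353271, DUSP1 at chr5:172768090-172771195 and SPRY4 at chr5:142310427-142326455, the last 3 on the minus strand. Antisense genes overlap the exons of DUSP1, DUSP6 and SPRY4. Their highest counts in any library were 1, 4 and 49, and the libraries were made with a directional kit.

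Between compounds, all 3 pairs were compared for each of the 10 genes, and none of these 30 differences passed the threshold by edgeR's quasi-likelihood test. At an unadjusted p under 0.05 there were 2, DESeq2 called 1, and the fit with the replicate block called 0. Of all tested genes, 0.313% were called between compounds 4 and 5, 1.03% between 6 and 5 and 0% between 4 and 6, where 945 genes were at an unadjusted p under 0.05 and DESeq2 called 59. With the replicate block, which pairs libraries of the same day, these counts went from 42 to 128, from 138 to 269 and from 0 to 1. On the log2 scale the 95% intervals reached between 0.25 and 1.71 to either side of the estimate, so that for the genes with the widest intervals a difference of several fold was not detectable.

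The lowest adjusted p of the 30 was that of DUSP1 between compounds 6 and 5, which differ in the bridge and in the ring substituents. Its log2 difference was -0.88 (95% interval -1.49 to -0.28, adjusted p = 0.138) by edgeR, the 2 libraries of compound 6 lay below both of compound 5, and DESeq2 called it. DUSP1 also differed by -0.40 (95% interval -0.998 to 0.20, adjusted p = 0.479) between compounds 4 and 5 and by 0.48 (95% interval -0.13 to 1.09, adjusted p = 0.764) between compounds 4 and 6. For DUSP4 the difference between compounds 4 and 6, which have tert-butyl and cyclohexyl at the same position, was 0.86 (95% interval 0.17 to 1.56, adjusted p = 0.580) by edgeR. Both libraries of compound 4 were above both of compound 6. In the fit without a filter on low counts these differences of DUSP1 (6 minus 5) and DUSP4 (4 minus 6) were called.

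For DUSP5 the same pair gave -0.060 (95% interval -1.77 to 1.65, adjusted p = 0.991) by edgeR, the widest interval of the 30. DUSP6 was measured more tightly. It differed by -0.028 (95% interval -0.28 to 0.22, adjusted p = 0.927) between compounds 4 and 5 and by -0.071 (95% interval -0.32 to 0.18, adjusted p = 0.772) between compounds 6 and 5. SPRY4 differed by -0.23 (95% interval -0.56 to 0.089, adjusted p = 0.444) between compounds 4 and 5 and by -0.070 (95% interval -0.39 to 0.25, adjusted p = 0.946) between compounds 4 and 6. Except for the differences of DUSP1 and DUSP4 named above, every interval held 0.

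**Figure D2:**
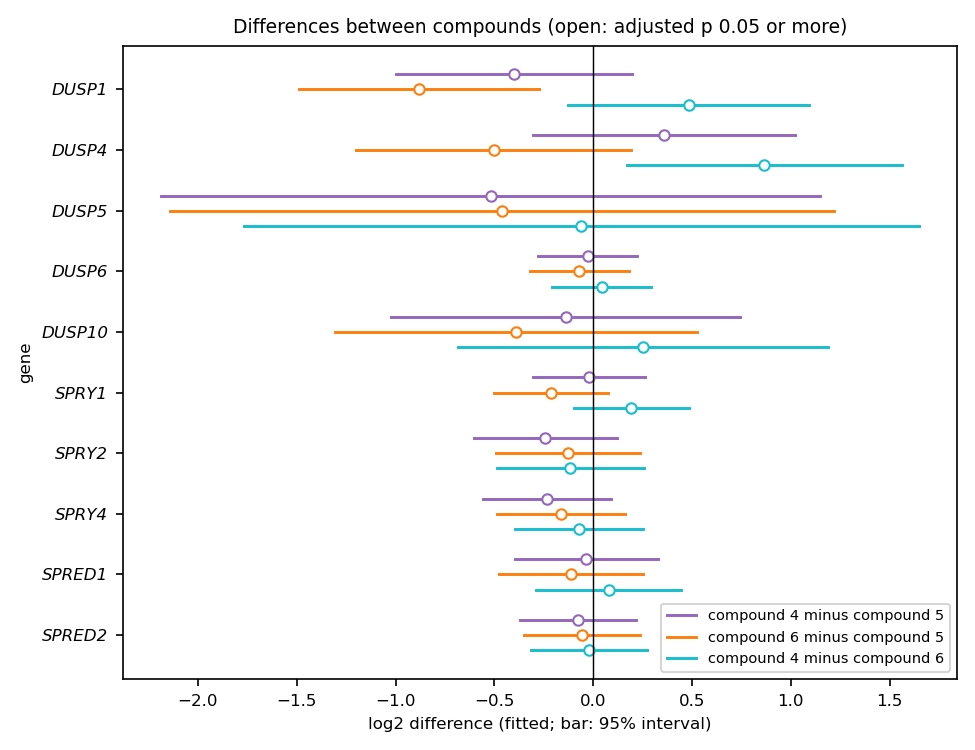
Fitted log2 difference between compounds (x axis) of each gene with its 95% interval as a bar: 4 minus 5 (purple), 6 minus 5 (orange) and 4 minus 6 (cyan). All points are open, since none passed an adjusted p of 0.05; the bars of DUSP5 span more than 3 log2 units, and those of DUSP6 about 0.5.

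Within a group, the libraries differed in the same direction for most of the genes under compounds 4, 5 and 6. Replicate 2 was the higher library for 10 of the 10 genes under compound 4, for 8 under compound 6, for 1 under compound 5 and for 4 under DMSO, while over all tested genes it was higher for 52.0%, 51.0%, 50% and 48.2%. The gap was widest for DUSP5, whose replicate 2 differed from replicate 1 by 1.88 on the log2(CPM + 0.5) scale under compound 4, by 2.40 under compound 6, by -1.57 under compound 5 and by -0.14 under DMSO. DUSP4 and DUSP1 followed the same signs in all 4 groups, with 0.68 and 0.41 under compound 4, 0.44 and 0.35 under compound 6, -0.63 and -0.84 under compound 5, and -0.46 and -0.45 under DMSO. With 2 libraries a group these gaps are a description.

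**Figure D3:**
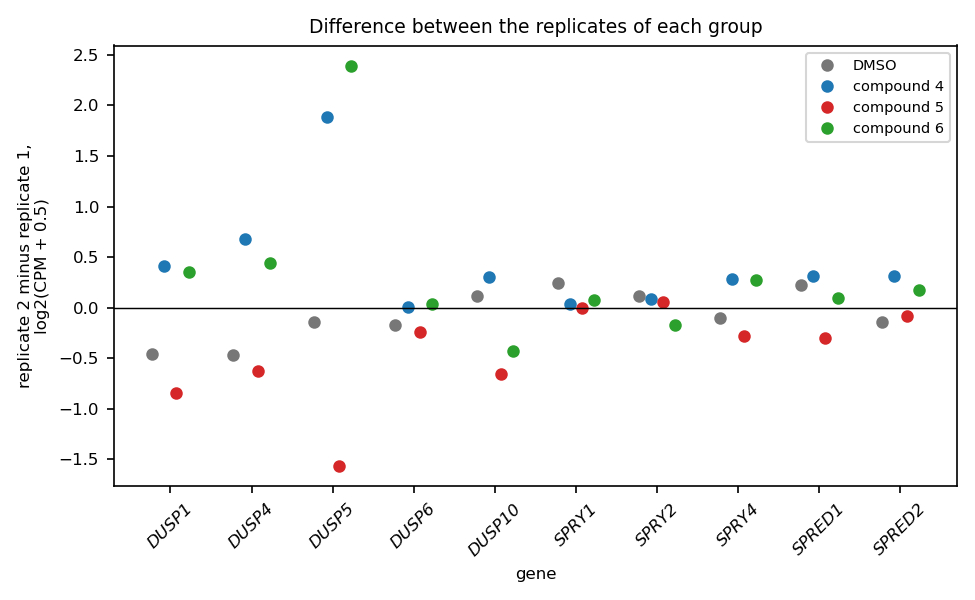
Replicate 2 minus replicate 1 in log2(CPM + 0.5) (y axis) for each gene (x axis), by group. The points of compounds 4 and 6 lie mostly above 0 and those of compound 5 mostly below, with DUSP5 farthest from 0 in all 3.

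Over the 8 libraries, the level of DUSP5 was followed most closely by GPAT3, an acyltransferase of triglyceride synthesis, with a Pearson r of 0.995 in log2(CPM + 0.5). GCLM, the modifier subunit of the enzyme that starts glutathione synthesis, had 0.995, PLEKHM1, an adaptor of lysosome fusion, 0.994, SHMT2, the mitochondrial serine hydroxymethyltransferase, 0.993, and TRIB1, a pseudokinase, 0.992. These were the top 5 of 12728 genes with a mean of at least 1 CPM. The points share libraries and 2 levels, DMSO and treated, so that r is given as a description. The levels of GCLM were 52.2 and 53.7 CPM in the DMSO libraries, 98.8 and 127 with compound 4, 135 and 109.9 with compound 5 and 86.4 and 124 with compound 6. As for DUSP5, replicate 2 of GCLM was the higher library under compounds 4 and 6 and the lower under compound 5. GCLM was picked by its likeness to DUSP5 over these same libraries, so nothing is read from that. Of the other genes described here, SPRY4 came nearest at rank 47 (r = 0.977), DUSP4 was at rank 312 (0.930) and DUSP6 at rank 330 (0.928). DUSP1 had 0.762, and SPRY1 (0.604), SPRED1 (0.540) and DUSP10 (0.477) were the least alike.

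Other members of the same families did not pass the threshold by edgeR. Of 7 further MAP kinase phosphatases and Sprouty relatives, 4 had enough reads. Under each compound 0 were called, with 1 gene each at p under 0.05 before adjustment (DUSP8, DUSP7 and DUSP9 in that order), and 0 by DESeq2. Of all tested genes, 5.6%, 5.35% and 0.493% were called higher under compounds 4, 5 and 6. The shares called lower were 3.91%, 2.95% and 0.0821%. With 4 genes, a count of 0 is not set apart from these shares, and nothing is read from it. DUSP9, a cytoplasmic ERK phosphatase, was the most abundant of them at 394 and 421 CPM in the DMSO libraries, 384 and 324 with compound 4, 274 and 386 with compound 5 and 308 and 288 with compound 6, with log2 differences of -0.20 ± 0.16 (compound 4), -0.31 ± 0.16 (compound 5) and -0.45 ± 0.16 (compound 6). DUSP7 had -0.15 ± 0.14 (compound 4), 0.35 ± 0.14 (compound 5) and -0.11 ± 0.14 (compound 6), DUSP16 -0.18 ± 0.12 (compound 4), 0.052 ± 0.12 (compound 5) and -0.0021 ± 0.12 (compound 6) and DUSP8 1.12 ± 0.45 (compound 4), 0.91 ± 0.45 (compound 5) and 0.70 ± 0.47 (compound 6). DUSP2 was at 0 counts in every library, and SPRY3 and SPRED3 stayed below 0.5 CPM. The median log2 difference of the 4 tested genes was -0.16, 0.20 and -0.056 under compounds 4, 5 and 6.

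Of 9 other negative regulators of receptors and RAS, 8 were tested. Of all tested genes, 5.6%, 5.35% and 0.493% were called higher under compounds 4, 5 and 6. The shares called lower were 3.91%, 2.95% and 0.0821%. With 8 genes, a count of 0 or 1 is not set apart from these shares. ERRFI1, which binds and inhibits EGF receptor kinases, rose under compound 5 by a log2 difference of 0.92 ± 0.16 (edgeR, adjusted p = 0.0124), from 843 and 681 to 1671 and 1213 CPM. It was the only call in this list and was lost without either DMSO library or replicate 1 of compound 5. Under compounds 4 and 6 edgeR and DESeq2 called 0, with 1 and 3 at an unadjusted p under 0.05. Log2 differences of the RAS-inactivating proteins neurofibromin and RASA1 and of the receptor inhibitor LRIG1 were NF1 -0.068, 0.18 and 0.20, RASA1 0.35, 0.30 and 0.42, and LRIG1 -0.24, 0.090 and -0.25 under compounds 4, 5 and 6. PEBP1, the RAF kinase inhibitor protein, had -0.14, -0.080 and -0.41. The ubiquitin ligases CBL and CBLB had 0.38 and 0.35 under compound 4, 0.37 and 0.076 under compound 5 and 0.49 and 0.32 under compound 6, and RASA2 had 0.15, 0.10 and 0.077. IL17RD, an inhibitor of FGF receptor signals, had too few reads to be tested, with 0.0569 to 0.589 CPM.

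Of 27 tested genes of 29 in the cascade from receptor to ERK, 4 rose under compound 4, where 5.6% of all tested genes were called higher, and 2 under compound 5, where 5.35% were, and none was called lower. EGFR rose by 0.82 ± 0.21 (edgeR, adjusted p = 0.0402), the adaptor SHC1 by 0.61 ± 0.11 (0.0143), ARAF by 0.51 ± 0.12 (0.0330) and MEK2 (MAP2K2) by 0.47 ± 0.10 (0.0185) under compound 4. SHC1 rose by 0.62 ± 0.11 (0.0152) and MAP2K2 by 0.51 ± 0.10 (0.0158) under compound 5. Under compound 6 edgeR called 0, with 4 at an unadjusted p under 0.05, and DESeq2 called 1, SHC1, named after its value was seen. The count under compound 4 fell to 0 without either DMSO library or replicate 2 of that compound and to 2 without its replicate 1, and rose to 7 without either library of compound 5. The count under compound 5 fell to 0 without either DMSO library or its replicate 1. The list median was 0.031, 0.051 and 0.025, near that of all genes.

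Of 19 tested genes of 22 known to be switched on by ERK, 8 rose under compound 4 and 12 under compound 5, and none was called lower. Of all tested genes, 5.6% and 5.35% were called higher. The list medians were 0.65 and 1.00. Under compounds 4, 5 and 6, 16, 18 and 18 of the 19 fitted differences were above 0. The lowest were -0.51, -0.15 and -0.50. ETV5, named after its values were seen, had group means of 97.9 CPM under DMSO and 96.1, 104 and 98.6 under compounds 4, 5 and 6. FOS, also named after its values were seen, had means of 8.58 CPM under DMSO and 5.93, 15.4 and 8.82 in that order. This list, like the other lists compared here, was drawn up with earlier results of these data known. The counts, medians and adjusted p-values are therefore a description and test nothing about the list. Among the genes called, compound 5 gave the largest differences for the EGF receptor ligand AREG at 3.22 ± 0.77 (edgeR, adjusted p = 0.0359), the immediate early factor EGR1 at 2.64 ± 0.39 (0.00751) and the ligand EREG at 2.35 ± 0.47 (0.0194). Among those called under compound 4 they were EREG at 2.08 ± 0.47 (0.0263), the receptor EPHA2 at 1.29 ± 0.31 (0.0319) and uridine phosphorylase UPP1 at 1.22 ± 0.30 (0.0331). Under compound 6 edgeR called 0, although the list median was 0.74, 12 genes were at an unadjusted p under 0.05 and DESeq2 called 8. AREG stood at 2.15 and 1.34 CPM in the DMSO libraries, 5.07 and 18.2 with compound 4, 22.3 and 10.2 with compound 5 and 6.87 and 21.0 with compound 6, with every treated library above both DMSO libraries. The counts fell to 1 and 0 under compound 4 without replicates 1 and 2 of DMSO and to 0 without replicate 2 of compound 4, and to 2 and 0 under compound 5 without replicates 1 and 2 of DMSO and to 3 without replicate 1 of compound 5. Under compound 6 up to 6 were called when 1 library was left out, the most without replicate 1 of compound 5.

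Of 11 tested genes of 12 in the JNK and p38 cascade, MAPK13, a p38 kinase, rose by 0.97 ± 0.16 under compound 4 (edgeR, adjusted p = 0.00864). It was the only gene of the list called higher there, where 5.6% of all tested genes were called higher and 3.91% lower. Under compounds 5 and 6 the shares were 5.35% and 0.493% higher and 2.95% and 0.0821% lower. With 11 genes, the counts of calls are not set apart from these shares. MAP2K6, a kinase upstream of p38, held 1 count over both libraries of compound 4 against 29 under DMSO, a ratio of DMSO to compound 4 of 31.8 with an exact counting interval of 5.28 to 1300. It was called lower by edgeR, but it had passed the filter on low counts through the DMSO libraries alone, so its call is not read. Under compounds 5 and 6 edgeR called 0, with 5 and 4 at an unadjusted p under 0.05, and DESeq2 called 1 in each, MAP2K7 under compound 5 and MAPK13 under compound 6, named after their values were seen. MAP2K6 was not called by DESeq2 or without any 1 of the DMSO and compound 4 libraries, and MAPK13 was lost without replicate 2 of DMSO or of compound 4. With the replicate block, 2 were called under compound 5, MAP2K7 and MAPK12, the latter also named after its value was seen.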

How the data were processed

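Messenger RNA of 8 HepG2 samples was sequenced with a directional kit. According to the submitters' processing notes and the study's methods, the authors checked reads with FastQC 0.12.0 and estimated transcript abundance with Salmon 1.5.0 on GENCODE annotation of GRCh38, summed to genes. The deposited values are estimated counts per gene, stored as whole numbers. No other column was used.

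Genes were filtered with filterByExpr at a minimum count of 10, scaled by TMM and fitted over all 8 samples and 4 groups with the quasi-likelihood test of edgeR 4.0.16 in R 4.3.3. P-values were Benjamini-Hochberg adjusted over 13400 genes at a threshold of 0.05. The standard error is the log2 difference over the square root of F, and intervals are 95%. Totals ran from 9791659 to 17814595 counts per sample. Alternatives were DESeq2 1.42.0, its size factors, other filters, the 4 libraries compared, 1 library left out and a block for the day that the labels give with each replicate number. Deviations of same-day libraries had r between -0.15 and 0.24 across genes over the pairs of groups. Scripts were tested on simulated data. The 10 genes, the other gene lists and the tests were chosen with earlier results of these data known. Named outside the 10 were all genes of the 2 lists of relatives and regulators, the 3 largest calls in each direction of the other lists, and the 5 genes most like DUSP5. Other genes are marked in the text as named after their values were seen. Promoters were to be shown for genes called under at least 2 compounds. DUSP1 was added after the search, and windows of annotated exons were left out. No promoter was found for DUSP4 and DUSP5, and protein sequences were not used here.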

Additional observations from a re-analysis of the deposited data

How the results depend on the processing

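With 2 libraries a group, calls moved with single libraries. When 1 library was left out, the number of the 10 feedback genes called ranged from 0 to 4 under compound 4, from 1 to 5 under compound 5 and from 0 to 4 under compound 6. The ranges under compounds 4, 5 and 6 were 0 to 7, 0 to 3 and 0 for the ERK cascade, 0 to 11, 0 to 13 and 0 to 6 for the ERK-induced genes, and 0 to 2, 0 to 1 and 0 to 1 for the JNK and p38 cascade. The further phosphatases and Sprouty relatives under compound 5 gave 0 to 1 and the other negative regulators under compound 5 gave 0 to 1. Over all genes the ranges were 43 to 1681, 46 to 1814 and 2 to 432 against DMSO, 9 to 25 between compounds 4 and 5, 0 to 105 between 6 and 5 and 0 to 13 between 4 and 6, against 1275, 1112, 77, 42, 138 and 0 calls with all libraries. Leaving out the same replicate of every group gave fold changes but no test.

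DESeq2 called 4 of the 10 genes under compound 6, 1 (DUSP1) between compounds 6 and 5, 8 ERK-induced genes and 1 cascade gene under compound 6, 1 gene of the JNK and p38 cascade under each compound, and, over all genes, 547 under compound 6, 210 between compounds 4 and 5, 379 between 6 and 5 and 59 between 4 and 6. The fit of only the 4 libraries compared called 4 of the 10 genes, 1 cascade gene, 9 ERK-induced genes, 1 gene of the JNK and p38 cascade, 1 further phosphatase (DUSP9) and 1 other regulator (PEBP1) under compound 6, and over all genes 1023 under compound 6, 10 between compounds 4 and 5 and 49 between 6 and 5; there SPRED1 and SPRY1 under compound 6 were at -0.00512 and -0.00455. DESeq2 size factors in edgeR left 1 of the 10 genes and 47 of all genes under compound 6. Without a filter on low counts, 4 of the 10 genes were called under compound 6, 1 between compounds 6 and 5 and 1 between 4 and 6; the lists gave 8, 4 and 1 (ERK cascade), 4, 3 and 1 (JNK and p38), 1, 1 and 1 (further phosphatases) under compounds 4, 5 and 6, and 12 ERK-induced genes and 2 other regulators under compound 6; all genes gave 2383, 2431 and 1355 against DMSO and 750, 990 and 259 between compounds (4 and 5, 6 and 5, 4 and 6). With a filter of at least 10 counts in every library, 3 ERK-induced genes and 1 JNK and p38 gene were called under compound 6. The main fit called 0 of either list there. The same filter gave 1 JNK and p38 gene under compound 4. Over all genes it gave 198 under compound 6, 65 between compounds 4 and 5 and 5 between 4 and 6. Adjusting over the 3 pairs of compounds together gave 74 between 6 and 5 and 11 between 4 and 6.

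The replicate block, which pairs libraries by the day in the labels, raised the JNK and p38 count under compound 5 from 0 to 2 and gave 128, 269 and 1 genes between compounds 4 and 5, 6 and 5 and 4 and 6. It changed no call of the 10 feedback genes.

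Differences that changed sign when 1 library, or the same replicate of every group, was left out were not called with all libraries. Their log2 ranges under compound 4 were CBL -0.16 to 0.79, CBLB -0.0080 to 0.72, DUSP16 -0.41 to 0.024, NF1 -0.39 to 0.21, PEBP1 -0.43 to 0.088, SPRED1 -0.081 to 0.23 and SPRED2 -0.065 to 0.38. Under compound 5 they were CBLB -0.18 to 0.37, DUSP10 -0.012 to 0.96, DUSP16 -0.023 to 0.12, LRIG1 -0.041 to 0.20, NF1 -0.038 to 0.37, RASA2 -0.042 to 0.23 and SPRED1 -0.15 to 0.40. Under compound 6 they were DUSP1 -0.22 to 0.59, DUSP10 -0.28 to 0.43, DUSP16 -0.13 to 0.10, DUSP8 -0.19 to 1.31, RASA2 -0.013 to 0.15, SPRED1 -0.11 to 0.14 and SPRY1 -0.11 to 0.15. Between compounds 4 and 5 they were DUSP1 -0.997 to 0.27, DUSP10 -0.73 to 0.47, DUSP4 -0.36 to 1.02, DUSP5 -2.43 to 1.12, DUSP6 -0.15 to 0.10, SPRED1 -0.36 to 0.27, SPRED2 -0.29 to 0.11 and SPRY4 -0.53 to 0.047. Between 6 and 5 they were DUSP10 -0.77 to 0.042, DUSP4 -1.08 to 0.062, DUSP5 -2.80 to 1.29, DUSP6 -0.22 to 0.068, SPRED1 -0.33 to 0.088, SPRED2 -0.21 to 0.071 and SPRY4 -0.46 to 0.11. Between 4 and 6 they were DUSP10 -0.21 to 0.73, DUSP5 -1.36 to 1.66, SPRED1 -0.10 to 0.23, SPRED2 -0.19 to 0.12, SPRY2 -0.24 to 0.016 and SPRY4 -0.22 to 0.071. Apart from the construction of each alternative, the cause of these changes was not tested. At 5 counts in each DMSO library, the fold of DUSP5 is limited by counting error.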
